A study of Mus musculus with 38 samples.

Results

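Transcripts of 10 genes that lung fibroblasts and endothelial cells are known for were followed through RNA sequencing libraries of sorted mouse lung macrophages. The 10 genes were taken by symbol from the 43346 gene identifiers of the count table. They comprise 7 fibroblast genes (Col1a1, Col1a2, Col3a1, Bgn, Sparc, Dcn and Inmt) and 3 endothelial genes (Ramp2, Calcrl and Cdh5), and each symbol matched 1 identifier. They were picked with the difference between interstitial and alveolar libraries of these data in view. That difference is therefore described here and not tested, while differences among the interstitial populations were tested.

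All cells came from perfused lungs of naive C57Bl/6 mice at steady state, aged 8 to 10 weeks, digested with Liberase. No transgene, deletion or treatment was used. Alveolar macrophages (AM) were sorted as CD11c+ SiglecF+ cells that lacked CD11b, CD103, Gr1 and the lymphoid markers NK1.1, B220 and CD3. For interstitial macrophages a MerTK enrichment came first, and live CD64+ CD11b+ cells were taken that lacked CD24, CD43, Ly6G, Siglec F, CD3, NK1.1 and B220. By surface level, IM1 was CD206 high and MHCII low, IM2 was high in both, and IM3 was CD206 low and MHCII high. Each population had 3 libraries, named replicates A, B and C, made from 2 ng of RNA of about 50000 cells. No gate on a fibroblast or endothelial surface marker is named in the labels. They do not say whether the replicates came from separate animals, so the spread and the p-values below may be technical in part.

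Fibroblasts build the interstitial matrix of the lung. Col1a1 and Col1a2 encode the chains of type I collagen and Col3a1 that of type III, the fibrillar collagens of the alveolar wall and vessels. Biglycan (Bgn) and decorin (Dcn) are small proteoglycans that bind collagen fibrils, Sparc is a secreted collagen-binding glycoprotein, and Inmt is a methyltransferase abundant in mouse lung fibroblasts. Cdh5 encodes VE-cadherin, the adhesion molecule of endothelial junctions. Calcrl is the receptor that becomes an adrenomedullin receptor with Ramp2 or Ramp3, and a CGRP receptor with Ramp1.

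Upstream sequences are shown for 2 collagen genes whose levels moved together across libraries, and for 2 fibroblast genes, Inmt and Sparc, whose correlation with them did not pass the threshold. They come from RefSeq (GRCm38.p6), read 5′ to 3′ on the gene's strand, and hold the bases before the RefSeq start that lie in no exon of the counted gene models. Entries for 6 of the 10 genes matched. Capitals mark TATAAA or GGGCGG on either strand. The Col3a1 stretch is chr1:45311288-45311537 (plus strand) and that of Col1a2 is chr6:4505370-4505492 (plus strand). The Inmt stretch is chr6:55175044-55175240 (minus strand) and that of Sparc is chr11:55420081-55420330 (minus strand).
Col3a1: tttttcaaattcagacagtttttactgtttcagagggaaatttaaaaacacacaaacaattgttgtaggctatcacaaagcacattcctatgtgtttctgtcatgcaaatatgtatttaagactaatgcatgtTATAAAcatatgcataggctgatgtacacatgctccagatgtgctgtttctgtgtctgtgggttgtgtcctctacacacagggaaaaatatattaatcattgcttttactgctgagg
Col1a2: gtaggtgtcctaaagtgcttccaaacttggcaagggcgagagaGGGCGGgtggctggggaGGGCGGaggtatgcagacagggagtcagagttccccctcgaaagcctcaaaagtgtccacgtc
Inmt: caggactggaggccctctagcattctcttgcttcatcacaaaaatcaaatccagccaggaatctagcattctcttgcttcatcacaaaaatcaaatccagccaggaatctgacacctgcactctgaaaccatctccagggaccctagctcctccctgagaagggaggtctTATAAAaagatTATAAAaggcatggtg
Sparc: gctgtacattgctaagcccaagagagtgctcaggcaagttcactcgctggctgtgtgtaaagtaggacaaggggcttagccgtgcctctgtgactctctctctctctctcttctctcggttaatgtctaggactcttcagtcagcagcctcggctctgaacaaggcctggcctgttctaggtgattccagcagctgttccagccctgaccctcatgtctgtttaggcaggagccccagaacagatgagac
The search used the CCAAT box, the TATA box core TATAAA and the GC box GGGCGG on both strands of the 250 bases before each start. No 2 of these motifs overlap in the stretches shown. TATAAA was in Col3a1 (1 match) and Inmt (2 matches), and in 12.4% of the 32851 RefSeq windows of that length. GGGCGG was in Col1a2 (2 matches) and in 32.7% of windows. CCAAT was in the window of Col1a2 (1 match, in an exonic stretch that is not printed) and in 33.8% of windows. The Sparc window held none of these letters. The 2 collagen genes shared none of the 3 motifs.

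The libraries held 11818981 to 15758326 reads assigned to genes, so that a count of 0 allows up to 3 counts, or 0.19 to 0.254 CPM (counts scaled to a library total of 1e6 assigned reads). This limit and the counting intervals below cover counting error only, since amplified reads without molecular identifiers are not independent molecules. A list of 10 macrophage-defining genes, among them Lyz2, Csf1r and Cd14, summed to 24350 to 34097 CPM in the interstitial libraries and 37560 to 45986 CPM in AM. IM1 replicate A stood apart in the balance of long and short genes. The median deviation of genes with over 4757 exonic bases, minus that of genes with up to 2573, was -0.60 on the log2 scale in that library and -0.13 to 0.26 in the other 8 interstitial libraries (14085 genes). Results that rest on this library or on another single library are given without it as well.

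In all, 9 of the 10 transcripts were present in all 9 interstitial libraries and absent or nearly so in AM. The 10 genes held 0.0258% to 0.0387% of the assigned reads of an interstitial library. Of these, 8 had 0 counts in all 3 AM libraries, and Sparc had 2 counts, both in AM replicate C. Calcrl, the remaining gene, did not share this pattern. Among the 14095 genes tested, 8.17% had 3 counts or fewer over the AM libraries, and 30.1% were higher in every interstitial library than in every AM library. The same was true of 9 of the 10 genes, from which nothing is read because they were picked on this contrast. In bulk RNA, fewer cells of a type and less RNA per cell cannot be told apart.

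Taken against 3 counts over the AM libraries, mean interstitial levels were at least 2138-fold higher for Inmt, 554-fold for Col3a1, 296-fold for Col1a2, 232-fold for Bgn and 227-fold for Col1a1. The bounds were at least 186-fold for Ramp2, 73.9-fold for Dcn and 66.4-fold for Cdh5. These bounds follow the depth as well as the level. The ratio for Sparc was 645 (95% exact binomial interval 178 to 5326).

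Calcrl was at 45.2, 46.4 and 50.8 CPM in the AM libraries. In IM1 it was at 19.7, 68.7 and 49.6 CPM, in IM2 at 35, 50.0 and 50.3, and in IM3 at 33.2, 31.2 and 47.3. The groups overlapped, and the ratio of interstitial to AM counts was 0.913 (0.868 to 0.96, counting error only). The data go against the label of an endothelial transcript for Calcrl, since AM libraries with 0 counts of Ramp2 and Cdh5 held a like level of it. Of its partners, chosen for mention after their values were seen, Ramp1 had 131 ± 4.04 CPM in AM (SD, n = 3) and means of 42.9 to 79.4 CPM in the interstitial populations. Ramp3 had 0 counts in AM and population means of 0.433 to 1.37 CPM elsewhere.

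**Figure D1:**
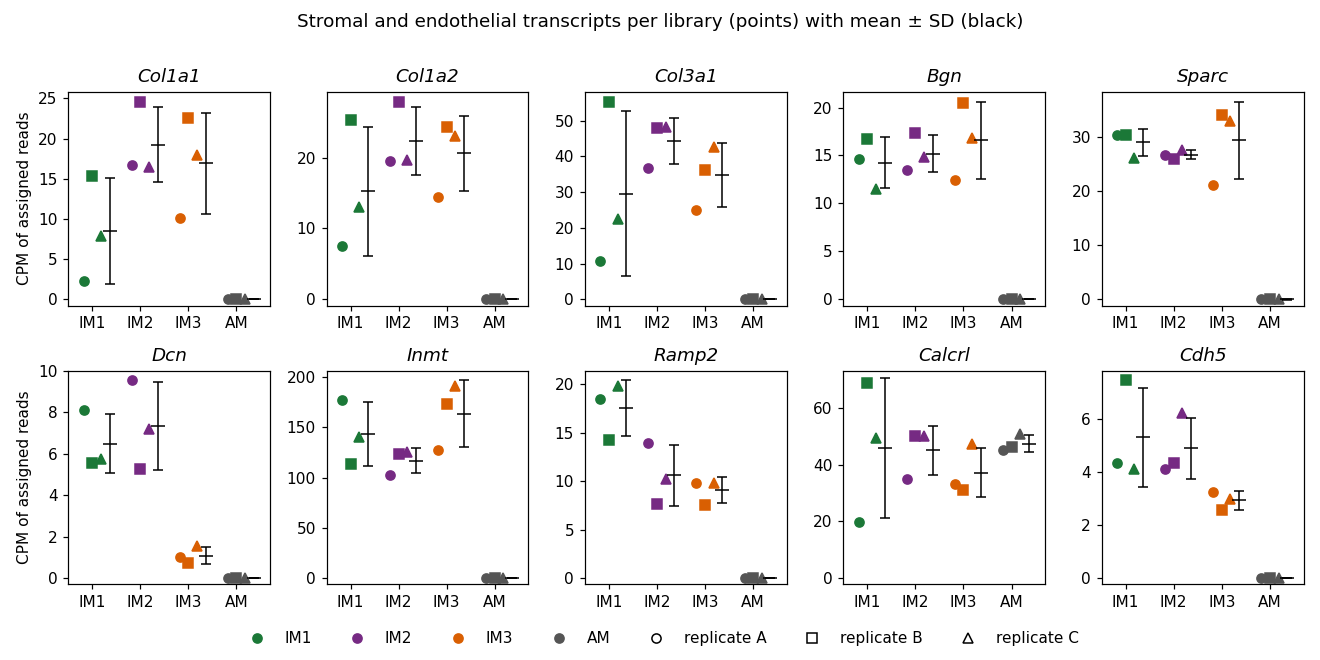
Level of each of the 10 genes in CPM of assigned reads (y axis, linear) by population (x axis). Coloured points are libraries, with the shape giving the replicate, and black bars are mean ± SD (n = 3). AM points lie at or next to 0 in 9 panels and at 45.2 to 50.8 CPM for Calcrl, and Dcn in IM3 lies below 1.54 CPM.

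On a scale that divides CPM by exonic length, so that genes can be compared, Inmt was by far the highest over the 9 interstitial libraries at 88.4 ± 19.5 CPM per kb (SD, n = 9). Calcrl at 8.76 ± 2.95 and Sparc at 8.44 ± 1.2 CPM per kb followed and differed by less than their spread. Ramp2 was at 3.76 ± 1.36 and Col3a1 at 3.68 ± 1.46 CPM per kb. The Ramp2 value may be too low, since reads in 1103 of its 3301 exonic bases, shared with Vps25, were not counted. Next came Bgn at 2.52 ± 0.453, Dcn at 2.39 ± 1.54, Col1a1 at 2.27 ± 1.08, Col1a2 at 1.6 ± 0.545 and Cdh5 at 1.1 ± 0.39 CPM per kb. From Ramp2 down, each gene lay closer to the next in this order than the larger of their SDs. Inmt alone made up 43.3% (IM1 replicate B) to 70.6% (IM1 replicate A) of the CPM of the 7 fibroblast genes.

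Among the interstitial populations, Dcn and Ramp2 were the genes of the 10 that changed. Dcn fell 5.8-fold in IM3 against IM1 and 6.59-fold against IM2, and Ramp2 fell 1.89-fold in IM3 against IM1. These tests used edgeR's quasi-likelihood test with p-values adjusted by Benjamini-Hochberg over 14095 genes and a threshold of 0.05. Of all genes tested, 24.4% were called in IM3 against IM1 (2 of the 10 genes here), 11.4% in IM3 against IM2 (1 of 10) and 1.71% in IM2 against IM1 (0 of 10 by edgeR and 0 by DESeq2, with Col1a1 and Ramp2 at an unadjusted p under 0.05). In this last pair the replicate letters pair the libraries, and with the letter as a block 392 genes in place of 241 and 1 of the 10, Col1a1, were called. The share called lower was 12.7%, 6.49% and 0.49%, and the share called higher was 11.7%, 4.94% and 1.22%. Against these backgrounds the count of called members was not high.

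Dcn was at 8.12, 5.56 and 5.76 CPM in IM1 and at 9.54, 5.28 and 7.22 CPM in IM2. In IM3 it was at 0.999, 0.728 and 1.53 CPM, from 10 to 22 counts a library. Every IM3 library was below every IM1 and IM2 library, while IM1 and IM2 overlapped. The log2 fold change was -2.54 ± 0.37 (SE) for IM3 against IM1 and -2.72 ± 0.37 for IM3 against IM2, each with an edgeR adjusted p of 0.000209. With any single library left out, the values stayed between -2.85 and -2.28 and between -3.04 and -2.5. For IM2 against IM1 the value was 0.18 ± 0.32 (edgeR adjusted p = 0.793).

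The fibrillar collagens varied most within IM1. Col1a1 was at 2.28, 15.4 and 7.82 CPM in IM1 replicates A, B and C, at 16.7, 24.6 and 16.4 in IM2, and at 10.1, 22.6 and 18 in IM3. Each IM2 library was above each IM1 library, but IM2 against IM1 (log2 fold change 1.20 ± 0.45) did not pass the test (edgeR adjusted p = 0.208, unadjusted 0.019). Libraries that do not overlap were seen for 16.5% of all genes in IM2 against IM1, and for 1 other member, Ramp2. Col3a1, at 10.7, 55.3 and 22.5 CPM in IM1, had both its lowest and its highest library in this population. It was at 36.7, 47.9 and 48.2 CPM in IM2 and at 25, 36.2 and 42.7 CPM in IM3. Col1a2 was at 7.53, 25.3 and 13 CPM in IM1, at 19.5, 27.9 and 19.6 in IM2 and at 14.5, 24.3 and 23 in IM3. Neither passed the test in any pair, with log2 fold changes between -0.32 and 0.63. The collagen calls changed with the libraries and with the fit. With the replicate letter as a block, Col1a1 was called in IM2 against IM1 (1.41, edgeR adjusted p = 0.0269). With no filter on low counts, Col1a1 (1.21, edgeR adjusted p = 3.44e-05) and Col3a1 (0.63, edgeR adjusted p = 0.0229) were called in that pair, and Col1a1 in IM3 against IM1 (1.05, edgeR adjusted p = 0.000108). Without IM1 replicate B, IM2 was above IM1 by 1.90 for Col1a1, 1.10 for Col1a2 and 1.41 for Col3a1 on the log2 scale (edgeR adjusted p = 0.0139, 0.0218 and 0.00662). IM3 was then above IM1 by 1.74, 1.01 and 1.08 (edgeR adjusted p = 0.00756, 0.0133 and 0.00927).

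Sparc and Bgn, which encode matrix proteins that bind collagen, were steadier. Sparc was at 21.2 to 34.2 CPM over the 9 libraries, a 1.62-fold range, and Bgn at 11.5 to 20.5 CPM, a 1.77-fold range. In the 3 IM2 libraries Sparc was at 26.7, 26 and 27.7 CPM, a spread no larger than counting error (chi-square per degree of freedom 0.436). The same measure was 233 for Col3a1 in IM1. For Sparc and Bgn the 3 pairwise log2 fold changes lay between -0.11 and 0.26, and none passed the test.

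Inmt was at 177, 114 and 140 CPM in IM1, at 103, 123 and 125 in IM2, and at 127, 173 and 191 in IM3. The highest library was IM3 replicate C and the next IM1 replicate A, the library with the lowest collagen levels. Each IM3 library was above each IM2 library, with a log2 fold change of 0.51 ± 0.20 that did not pass the test (edgeR adjusted p = 0.131). It passed without IM1 replicate A (0.52, edgeR adjusted p = 0.0236) and with no filter on low counts (0.52, edgeR adjusted p = 0.0173). Libraries that do not overlap were seen for 30.6% of all genes in this pair.

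Of the endothelial genes, Ramp2 was at 18.5, 14.3 and 19.8 CPM in IM1, at 13.9, 7.7 and 10.2 in IM2, and at 9.85, 7.5 and 9.87 in IM3. IM1 did not overlap with either other population, as 36.6% of all genes did not in IM3 against IM1. IM3 against IM1 gave a log2 fold change of -0.91 ± 0.25 (edgeR adjusted p = 0.0159). The call was lost without IM1 replicate C (-0.84, edgeR adjusted p = 0.0552) or without IM3 replicate B (-0.80, edgeR adjusted p = 0.0721). IM2 against IM1 gave -0.72 ± 0.25 (edgeR adjusted p = 0.174), and without IM1 replicate B it was called (-0.87, edgeR adjusted p = 0.0374). Exons of Ramp2 share 1103 bases with Vps25 on the same strand, and reads there were counted for neither gene. The counts of Vps25, at most 0.582 CPM, are lowered by that rule and do not show its level. The shared bases are part of the 3301 exonic bases of Ramp2, so that its length-scaled levels and ratios may be too low.

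Cdh5 was at 4.32, 7.44 and 4.12 CPM in IM1, at 4.11, 4.33 and 6.2 in IM2, and at 3.26, 2.55 and 2.99 in IM3. Each IM3 library was below each IM1 and IM2 library. The log2 fold changes were -0.80 ± 0.31 against IM1 and -0.71 ± 0.31 against IM2 and did not pass the test (edgeR adjusted p = 0.082 and 0.204). Calcrl did not pass the test in any pair, with log2 fold changes of -0.25 to 0.01 and an SE of 0.29. Without IM1 replicate A, Calcrl was called lower in IM3 than in IM1 (-0.58, edgeR adjusted p = 0.0331).

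Ratios within a library are free of its depth and show whether the counted levels kept fixed proportions. The proportions were not fixed. The ratios are not free of the balance of long and short genes, with which Col3a1 moved (r = 0.90). They were not recomputed on levels matched for length. The spread of Col3a1 itself, 5.19-fold over the 9 libraries, enters every ratio to it. Each ratio below divides length-scaled levels, and its interval is a 95% exact binomial interval of the counts. Inmt to Col3a1 was 15.8 to 17.2 in the 3 IM2 libraries and 27.5 to 31.2 in the 3 IM3 libraries. In IM1 it was 102 in replicate A, 12.6 in replicate B and 38.1 in replicate C. The range over the 9 libraries was 8.08-fold, and 3.02-fold without IM1 replicate A, and the IM2 and IM3 ranges did not touch. Over the 9 libraries the SD of the log2 ratio was 0.92, against 0.08 from counting alone.

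Dcn to Col3a1 ranged most. The IM1 libraries had 0.473 to 3.59, those of IM2 0.519 to 1.22 and those of IM3 0.0946 to 0.188, a 37.9-fold range (13-fold without IM1 replicate A). All 3 IM3 values lay below all 6 others. Sparc to Col3a1 ranged 5.27-fold and Bgn to Col3a1 4.55-fold, and without IM1 replicate A these ranges were 2.15-fold and 1.87-fold.

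Over the 9 libraries, Col1a2 to Col3a1 varied least of the 10 ratios. It was 0.329 (IM2 replicate C) to 0.571 (IM1 replicate A), a 1.73-fold range, with an SD of 0.25 on the log2 scale against 0.12 from counting. Col1a1 to Col1a2, the chains of type I collagen, was 1.28 to 1.72 in IM3, 1.55 to 1.63 in IM2, and 0.561, 1.13 and 1.11 in IM1 replicates A, B and C. The ratios with Col1a1 were not steadier than those of the endothelial genes. Col1a1 to Col3a1 ranged 2.9-fold, Col1a1 to Col1a2 3.06-fold and Ramp2 to Cdh5 2.91-fold. Without IM1 replicate A these ranges were 2.23-fold, 1.55-fold and 2.91-fold, and that of Calcrl to Cdh5 was 1.95-fold. For the endothelial genes, Ramp2 to Cdh5 was 1.99 to 5.8 (possibly too low, for the exons shared with Vps25), and Calcrl to Cdh5 was 3.73 to 12.9. Cdh5 to Col3a1, an endothelial to a fibroblast gene, was 0.172 (IM3 replicate C) to 0.997 (IM1 replicate A). That range was 5.79-fold, and 2.62-fold without IM1 replicate A. In each of the 10 ratios the SD over libraries exceeded the counting SD, by 2.04 to 11.4 times. Repeated runs of a library had a median chi-square per degree of freedom of 1.15 over 89 gene and library combinations (0.00617 to 10.6). It was 0.586 to 1.56 in the medians of the fibroblast genes, and 1.33 for Ramp2 lay within that range. Cdh5 at 2.24 and Calcrl at 3.07 lay above it, so that runs of these genes also varied by more than counting.

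**Figure D2:**
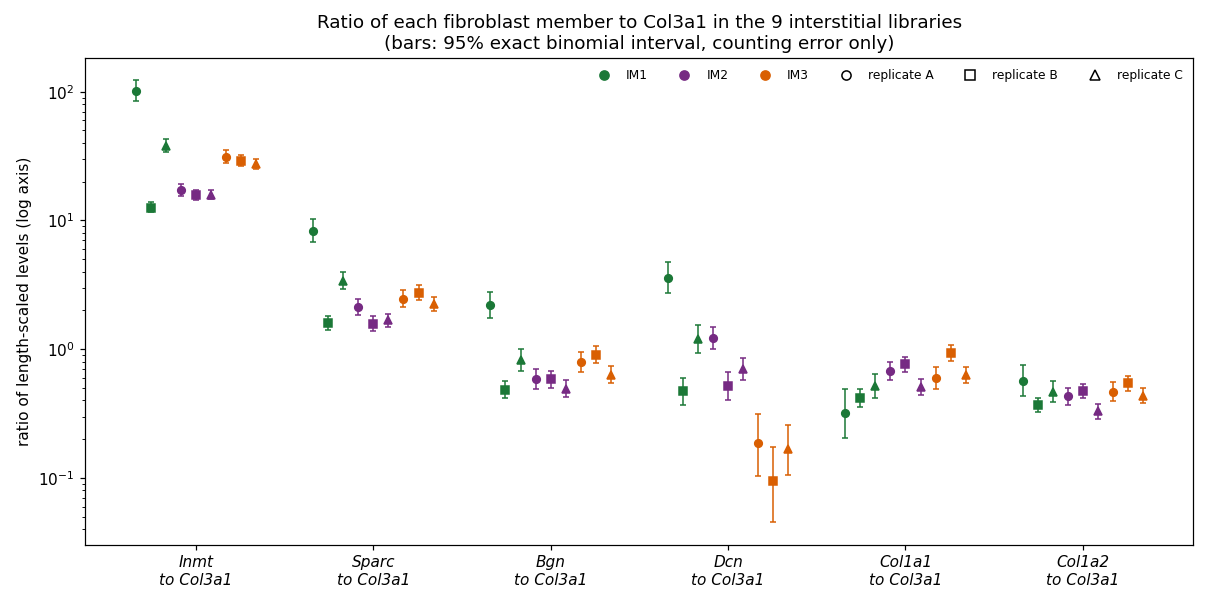
Ratio of the length-scaled level of each fibroblast gene to that of Col3a1 (y axis, log scale) in the 9 interstitial libraries, coloured by population and shaped by replicate. Bars are 95% exact binomial intervals for counting error. Dcn to Col3a1 in IM3 lies at 0.0946 to 0.188, below all other libraries, and IM1 replicate A is highest for Inmt, Sparc, Bgn and Dcn.

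Co-variation was measured over the 9 interstitial libraries for all 45 pairs of the 10 genes, on log2(CPM + 0.5). AM libraries were left out because they form a separate cluster. The 3 collagen pairs were the ones that passed. Pearson's r was 0.97 for Col1a1 and Col1a2, 0.95 for Col1a2 and Col3a1, and 0.92 for Col1a1 and Col3a1 (two-sided exact permutation p = 0.00024, 0.000813 and 0.00274, and 0.0108, 0.0183 and 0.0412 adjusted over 45 pairs). Spearman's rho was 0.82, 0.80 and 0.53 (exact permutation p = 0.0108, 0.0138 and 0.148, and 0.129, 0.129 and 0.415 adjusted), so no pair passed by rank. Without the 2 libraries farthest from the median, IM1 replicates A and C, r was 0.87, 0.78 and 0.55. The last of these relations rests on those 2 libraries. After each population's mean was removed, r was 0.98, 0.95 and 0.93 (exact permutation p within populations 0.00926, 0.0417 and 0.0463, each 0.382 adjusted). The count of passing pairs was 1 without IM2 replicate A and 0 without IM3 replicate A. Col1a1 and Col1a2 lost the call without IM3 replicate A alone (adjusted exact permutation p = 0.0536). Col1a2 and Col3a1 lost it without IM1 replicate A, IM1 replicate C, IM2 replicate A or IM3 replicate A (0.0547 to 0.0845). Col1a1 and Col3a1 kept it only when IM1 replicate B or IM3 replicate B was the library left out (otherwise 0.0554 to 0.187).

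The pairs of a collagen with another fibroblast gene did not pass over the 9 libraries. The 12 pairs of a collagen with Bgn, Sparc, Dcn or Inmt had r of -0.41 to 0.60, 6 of them positive and 6 negative. These values rest on IM1 replicate A. Without it they were -0.13 to 0.89, with 0.67 to 0.89 for Bgn and 0.51 to 0.61 for Sparc, while the 3 collagen pairs were at 0.76 to 0.93. Col1a2 and Bgn, at 0.89, then lay above Col1a2 and Col3a1, at 0.87. The 21 pairs of a fibroblast with an endothelial gene had r of -0.75 (Col1a1 and Ramp2) to 0.80 (Col3a1 and Calcrl). Each of these extremes had an adjusted exact permutation p of 0.0917, but both passed in another setting. Col1a1 and Ramp2 passed with TMM-scaled CPM (r = -0.82, adjusted exact permutation p = 0.0315). Col3a1 and Calcrl passed without IM1 replicate C (r = 0.92, adjusted exact permutation p = 0.0145). Of all 45 pairs, 23 were positive and 22 negative. A pair that misses the threshold in 9 libraries is not shown to vary independently.

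**Figure D3:**
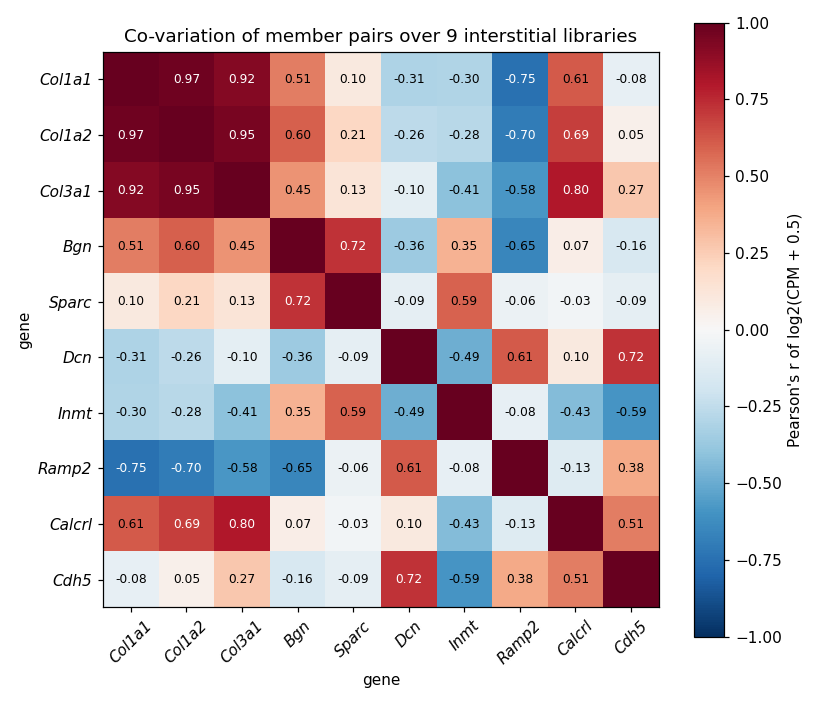
Pearson's r of log2(CPM + 0.5) for each pair of the 10 genes (rows and columns) over the 9 interstitial libraries, on a colour scale from -1 (blue) to 1 (red). The collagen block is at 0.92 to 0.97, and the remaining cells run from -0.75 to 0.80.

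The collagens also moved with the balance of long and short genes in a library, and they are the longest of the 10 genes (6563 to 12136 exonic bases). Over the 9 interstitial libraries their r with that balance was 0.91 for Col1a1, 0.90 for Col1a2 and 0.90 for Col3a1 (two-sided exact permutation p = 0.00573, 0.00305 and 0.00438, each 0.0191 adjusted over the 10 genes). Spearman's rho was 0.63, 0.80 and 0.72 (exact permutation p = 0.076, 0.0138 and 0.0369, and 0.211, 0.138 and 0.184 adjusted). Without IM1 replicates A and C, r was 0.29, 0.48 and 0.41, so the relation rests on these 2 libraries. For Ramp2, r was -0.71 (adjusted exact permutation p = 0.0384), rho was -0.58 (adjusted 0.211) and r was -0.42 without the same libraries, and for Calcrl it was 0.74 (adjusted 0.0576). For Inmt it was -0.31 (adjusted 0.566).

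The collagen pairs were therefore recomputed on levels divided by the median deviation of the 500 genes nearest in length, a step chosen after seeing the data. Their r was then 0.96, 0.93 and 0.89, and all 3 still passed. Col1a1 and Ramp2 (-0.82) and Bgn and Sparc (0.87) passed as well (adjusted exact permutation p = 0.033 for each). In IM1 replicate A this correction amounted to -0.37 to -0.35 on the log2 scale for the collagens. How far gene length accounts for the low collagen levels of that library was not tested further.

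**Figure D4:**
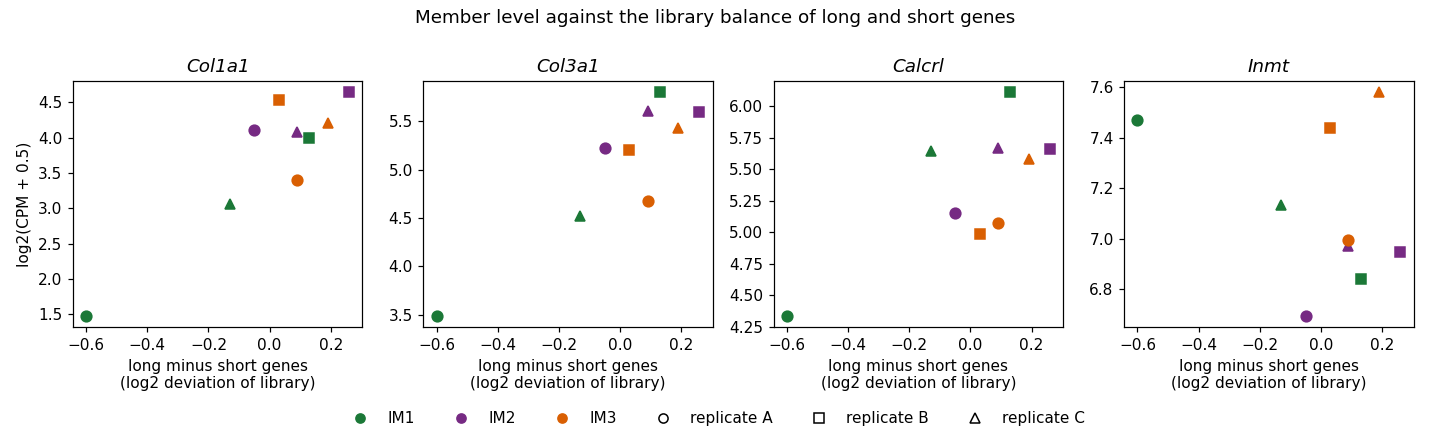
Level of Col1a1, Col3a1, Calcrl and Inmt as log2(CPM + 0.5) (y axes) against the median log2 deviation of long minus short genes (x axes) in the 9 interstitial libraries, coloured by population and shaped by replicate. IM1 replicate A, at -0.60, is lowest for both collagens and Calcrl and second highest for Inmt.

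Further genes of the same cell types were read from lists that do not hold the 10 genes. Of 34 other fibroblast genes tested, 33 were higher in the interstitial libraries than in AM and 0 lower, with a median log2 fold change of 8.23 against 0.10 for all genes. Of all genes, 35.9% were called higher and 64.6% in either direction. This count is a description from which nothing is read, since a gene with 0 counts in AM could pass the filter on low counts through the interstitial libraries alone. Fibroblast list sums were 336 to 656 CPM for IM1, 492 to 764 for IM2, 852 to 1169 for IM3 and 21 to 22.4 for AM, where 22 of the 34 genes had 0 counts. The highest gene of the list was Col14a1, a fibril-associated collagen, at 237 ± 111 CPM in IM1, 337 ± 90.2 in IM2 and 615 ± 103 in IM3 (SD, n = 3). Mgp, a matrix calcification inhibitor, was at 28.7 to 33.6 CPM in the population means and 0 in AM, and Npnt, an integrin ligand of basement membranes, had means of 13, 23.1 and 51.5 CPM in IM1, IM2 and IM3.

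In IM3 against IM1, 7 of the 34 fibroblast genes rose and 2 fell (26.5% called, against 24.4% of all genes, of which 11.7% rose and 12.7% fell), with a median of 0.33 against -0.02 for all genes. The share called was near that of all genes. Cxcl14, a chemokine, rose by 1.77 ± 0.23 on the log2 scale (edgeR adjusted p = 4.14e-05), from 13.5 to 44.4 CPM. It was at 11.7 CPM in AM, near its level in IM1, so its transcript was not particular to libraries with collagen counts. Mfap4, a microfibril protein, rose by 1.44 ± 0.26 (edgeR adjusted p = 0.00076). Cygb, a globin of fibroblast-like cells, fell (-1.51), and Pi16, a marker of adventitial fibroblasts, fell as well (-4.09 ± 0.71, edgeR adjusted p = 0.000534), from 1.78 to 0.0907 CPM. In IM3 against IM2, 5 rose (Cxcl14, Mfap4, Col14a1, Ces1d and Fgfr4) and 2 fell (20.6% called, against 11.4% of all genes). Ces1d and Fgfr4 are named here after their values were seen. The falls were Pi16 (-4.40 ± 0.70, edgeR adjusted p = 0.000439) and Cygb (-1.88 ± 0.27, edgeR adjusted p = 0.000338). The count of 5 became 1 when IM2 replicate A, IM2 replicate C, IM3 replicate B or IM3 replicate C was left out. In IM2 against IM1, 0 of the 34 were called by edgeR and 0 by DESeq2, with 2 at an unadjusted p under 0.05, while 1 rose with the replicate block and 3 without IM1 replicate B.

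Of 35 endothelial genes tested, 32 were higher and 3 lower (Flt1, Car4 and Vwf, the last 2 named after their values were seen) in the interstitial libraries than in AM. Here too a gene with 0 counts in AM, as 23 of the 38 listed had, could pass the filter through the interstitial libraries alone, so nothing is read from this count. List sums were 1177 to 1336 CPM for IM1, 905 to 1038 for IM2, 810 to 899 for IM3 and 900 to 1073 for AM. The interstitial populations did not overlap in this sum, and the AM range covered that of IM2. Most of the AM sum was Car4 (674 CPM). In the interstitial libraries the highest genes of the list were Hpgd, Acvrl1, Thbd and Ednrb. The sums thus follow a few genes that differ between AM and the interstitial libraries, and are not a measure of endothelial content. Hpgd, a prostaglandin-degrading enzyme, led the list in the interstitial populations at means of 431 to 591 CPM. In IM3 against IM1, 8 fell and 2 rose (28.6% called, against 24.4% of all genes). Ednrb, an endothelin receptor, fell from 220 to 2.18 CPM (log2 fold change -6.63 ± 0.31, edgeR adjusted p = 6.26e-09). Acvrl1, a receptor kinase of the TGF-beta family, rose from 75.8 to 217 CPM (1.55 ± 0.14, edgeR adjusted p = 6.96e-07), and the second rise was of Pecam1 (1.30), likewise named after its values were seen. Flt1, a VEGF receptor, fell by 1.74 (edgeR adjusted p = 0.000287) but was highest in AM, at 137 CPM. In IM3 against IM2, Acvrl1 and Pecam1 rose, and Ednrb and Thbd fell (11.4% called, and 11.4% of all genes). Thbd, thrombomodulin, was at -1.46 ± 0.20 (edgeR adjusted p = 0.000148). In AM, Acvrl1 was at 47.7 CPM and Thbd at 23.4 CPM, where Cdh5 and Ramp2 had 0 counts. In IM2 against IM1 the 1 call was Flt1 (-1.17 ± 0.26, edgeR adjusted p = 0.0334), which was lost when any of 8 libraries was left out. With the replicate block 4 were called lower there, and without IM1 replicate B 6. DESeq2 called 5 of the 35 in this pair, and 14 had an unadjusted edgeR p under 0.05. The 3 endothelial genes followed here had medians of -0.80 in IM3 against IM1 and -0.25 in IM3 against IM2, and the list of 35 had -0.82 and -0.20. In IM2 against IM1 the medians were unlike, at -0.09 for the 3 genes and -0.64 for the list. There 4 of the 35 had a positive log2 fold change.

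**Figure D5:**
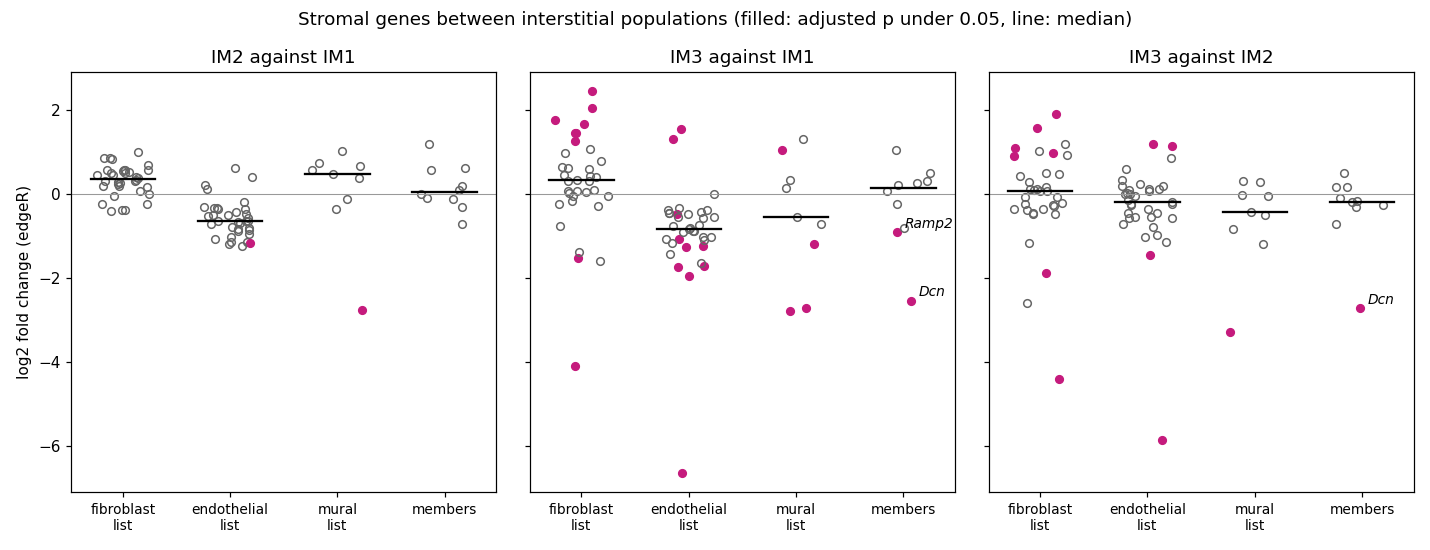
Fold change on the log2 scale (y axis) of each tested gene of the fibroblast, endothelial and mural lists and of the 10 genes followed here (x axis), for the 3 pairs of interstitial populations. Filled points passed an adjusted p of 0.05 and black lines are medians. Dcn is called in both comparisons with IM3, at -2.54 and -2.72, and Ramp2 in 1, at -0.91.

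Of the 9 mural (smooth muscle and pericyte) genes tested, 6 were higher than in AM and 0 lower (66.7% called, against 64.6% of all genes). In IM3 against IM1, 44.4% of them were called, against 24.4% of all genes. Cspg4, a pericyte proteoglycan, had means of 20.4, 2.97 and 2.83 CPM in IM1, IM2 and IM3 and fell in both latter against IM1 (-2.76 ± 0.44 and -2.78 ± 0.44, edgeR adjusted p = 0.00363 and 0.000243) and was at 6.01 CPM in AM. Cnn1 and Acta2, of the smooth muscle contractile apparatus, fell in IM3 against IM1 (-2.72 ± 0.46 and -1.19 ± 0.29, edgeR adjusted p = 0.000722 and 0.007). Acta2 was at 4.72 CPM in AM, against 3.39 CPM in IM3, and Cnn1 at 0 in AM. Des, a muscle intermediate filament, was at 0 in AM and rose in IM3 against IM1, from 4.13 to 8.34 CPM (1.05 ± 0.33, edgeR adjusted p = 0.0357). That 1 rise was lost without IM1 replicate C, IM2 replicate C, IM3 replicate B or IM3 replicate C.

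Genes of some other cell types were present in the interstitial libraries as well. Against AM, 9 of 13 tested epithelial genes were higher and 4 lower, 2 of 2 mesothelial genes were higher, and 5 of 8 genes of other leukocytes were higher and 0 lower. Of lymphatic endothelial genes 0 of 3 were higher and 1 lower, and of erythroid genes 5 of 5 were lower. The limit given for the fibroblast count holds for these counts too. Summed levels in the interstitial libraries were 2.33 to 4.82 CPM for the 6 mesothelial genes (led by Upk1b, Upk3b and Msln) and 4.03 to 13 CPM for the 6 lymphatic endothelial genes (led by Pdpn, Prox1 and Flt4). The 18 epithelial genes summed to 47.7 to 97.9 CPM there and to 826 to 976 CPM in AM, led in the interstitial libraries by Napsa, Sftpc and Hopx. Most of the AM sum was Krt19 (655 CPM), named after its values were seen, while Sftpc, the surfactant protein C gene of alveolar type II cells, had means of 7.47 to 17.7 CPM in the interstitial populations and 0.322 CPM in AM. Erythroid genes, led by Hbb-bs, Hba-a1 and Hbb-bt, summed to 0.903 to 75.5 CPM in the interstitial libraries and 325 to 395 CPM in AM. Genes of other leukocytes summed to 222 to 1455 CPM in the interstitial libraries, of which Pf4, Siglech and Csf3r held most, and to 61.4 to 78.2 CPM in AM. Csf3r had means of 62.8 to 88.6 CPM in the interstitial populations and 68.1 CPM in AM. Ly6g, Ncr1, Cd8a and Mcpt8 had 0 counts in every library, and Cd3e had at most 1 count in any population. These 5 are named after their values were seen. The part of genes of other cell types in the differences above was not tested.

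Of the genes for collagen processing, 18 were tested, and 10 were higher and 4 lower in the interstitial libraries than in AM (77.8% called, against 64.6% of all genes). Those with the highest levels, P4hb, Plod1 and Colgalt1, were expressed at 234 to 905 CPM in AM, where no collagen gene of the 10 had a count. Serpinh1, the collagen chaperone, chosen for mention after its values were seen, had 0 counts in AM and means of 8.46 CPM in IM1, 11.5 in IM2 and 11 in IM3. Pcolce2, likewise chosen, which enhances procollagen cleavage, had 0 counts in AM and rose in IM3 against IM1 (0.75 ± 0.23, edgeR adjusted p = 0.0287), from 12.8 to 21 CPM. In IM3 against IM1, 2 of the 18 rose (Colgalt1 and Pcolce2) and 5 fell (Plod1, Crtap, Pcolce, Bmp1 and Adamts14). That was 38.9% called, against 24.4% of all genes. In IM3 against IM2, Colgalt1 was the 1 that rose, and Plod1, Crtap, Pcolce and Bmp1 were the 4 that fell (27.8% called, against 11.4%). Of the 9 tested partners of Calcrl and Cdh5, 2 rose (Jup and Ramp1) and 2 fell (Ctnnd1 and Ackr3) in IM3 against IM1 (44.4% called, against 24.4%). Those of these genes outside the naming rule were named after their values were seen. The catenins Ctnna1 and Ctnnb1 and plakoglobin (Jup), which bind cadherins, were at 130 CPM or more in all 4 population means.

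The genes whose pattern was most like a member's over the 9 interstitial libraries were ranked by Pearson's r among 14063 other genes, as a description with no test. For Dcn they were Ccl8 (0.994), Gfra2 (0.988), Mpi (0.986), Clec10a (0.981) and Hmox1 (0.981), and 2 of the 34 fibroblast genes were among its nearest 500. For Col1a2 they were Zfp518a (0.989), Col6a2 (0.974), Lclat1, Csrp1 and Dlg1 (0.962 each). Col6a2, a chain of type VI collagen, was the 1 gene of the fibroblast list among the nearest 5 of any of the 10 genes. Col1a1 lay nearest to Lclat1 (0.970), Rab5b, Csrp1, Zfp518a and Fbxl14, and Col3a1 to Fam160b1 (0.975), Rbms2, Spin1, Csrp1 and Ift140. Each collagen had 3 of the 34 fibroblast genes among its nearest 500, Bgn had 10, Sparc 9 and Inmt 1. Any 500 of the 14063 genes would hold some of a list by share alone. Nothing is therefore read from counts of 1 to 3.

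For the remaining genes the nearest were Mak16 (0.930), Wipf2, Gatad1, Ccdc40 and 2610021A01Rik for Bgn, and Gm28151 (0.890), Snord19, Eif1ad, Spon2 and Gdap1l1 for Sparc. Inmt lay nearest to Ints12 (0.926), Pgs1, Fdps, Hsd17b4 and Ubxn7. Ramp2 lay nearest to Msrb2 (0.969), Tsen34, Cyb5r1, Nelfe and Fgf9, and had 5 of the 35 endothelial genes among its nearest 500. Calcrl had 2 of them and Cdh5 3, with the same limit. Calcrl lay nearest to Fam53b (0.980), Cyfip1, Gm14746, Sft2d2 and H6pd, and Cdh5 to Sh3d19 (0.944), Snx25, Depdc1b, Glb1l and Mfsd14a. These points share libraries, depth and the length balance described above.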

How the data were processed

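RNA of sorted cells was amplified with SMART-Seq v4 and sequenced on an Ion Proton as 38 runs of 12 libraries, per the labels. The authors deposited counts of reads per gene and run. Per the file headers, they used featureCounts v1.5.0-p1 without strand on Ensembl 78 gene models (mm10) and did not count multimapping reads or reads in overlapping genes. STAR 2.5.1b, Subread 1.5.0-p1, DESeq2 1.8.1 and R 3.2.0 are named in the submitters' processing notes. Gene length is the exonic length per the file headers. Counting without strand cannot separate a gene from an antisense partner.

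Runs were summed per library, and the sums equalled the deposited library counts in every cell (0 differed). Of 43346 identifiers, 42462 (98.0%) had a symbol in GENCODE M21. CPM is counts scaled to a total of 1e6 assigned reads, and CPM per kb divides it by exonic length. Assigned reads were 71.06% to 77.6% of mapped reads. Tests used edgeR 4.0.16 under R 4.3.3 with TMM scaling, filterByExpr by population (minimum count 10, 14095 genes kept), a robust quasi-likelihood fit of all 12 libraries on population, and Benjamini-Hochberg adjustment. All 10 members passed that filter. Same-letter libraries deviated together in IM1 and IM2 (correlations 0.256, 0.166 and 0.292) and in IM2 and IM3 (0.189, 0.143 and 0.163), so that by the threshold of 0.1 the letters pair these libraries. They do not in IM1 and IM3 (0.066, -0.122 and 0.165) or with AM. This comes from the data, since the labels do not say what a letter shares. Co-variation used a pseudocount of 0.5 CPM. On simulated data for IM2 against IM1 (13717 genes), 72% of genes changed 2-fold and 96.8% of those changed 4-fold were recovered, with 4 false calls. Every simulated gene had the same median spread between libraries, and no library stood apart. These rates therefore do not carry over to genes as variable as the collagens in IM1.

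The members and lists were chosen with earlier results of these data known. The named genes were the members, the 3 genes with the highest mean interstitial CPM of each list (fibroblast, endothelial, mural, lymphatic endothelial, mesothelial, epithelial, collagen pathway, receptor partners, other leukocytes, macrophage-defining, erythroid), and up to 3 called genes of the fibroblast, endothelial and mural lists with the smallest adjusted p per pair. The 5 genes nearest in pattern to each member were also named. Lists were described by counts and medians, with no set test. Alternatives were other scalings, no filter, DESeq2 1.42.0, interstitial libraries only, a replicate block, other pseudocounts, no length scaling, length-matched levels and leaving out each library.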

Additional observations from a re-analysis of the deposited data

Results flagged for a closer look

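Each result here is a difference between interstitial populations, in log2 units, that passed edgeR's quasi-likelihood test. Among the genes followed, these were Dcn in IM3 against IM1 (-2.54) and against IM2 (-2.72), and Ramp2 in IM3 against IM1 (-0.91).

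Among the other fibroblast genes, Cxcl14 was higher in IM3 than in IM1 (1.77) and IM2 (1.58), and Mfap4 was higher in IM3 than in IM1 (1.44). Pi16 was lower in IM3 than in IM1 (-4.09) and IM2 (-4.40), and Cygb was lower in IM3 than in IM2 (-1.88).

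Among the endothelial genes, Ednrb was lower in IM3 than in IM1 (-6.63) and IM2 (-5.84), and Acvrl1 was higher (1.55 and 1.14). Thbd was lower in IM3 than in IM2 (-1.46). Flt1 was lower in IM2 than in IM1 (-1.17) and in IM3 than in IM1 (-1.74). Among the mural genes, Cspg4 was lower in IM2 (-2.76) and IM3 (-2.78) than in IM1. Acta2 was lower in IM3 than in IM1 (-1.19), and Cnn1 was lower in IM3 than in IM1 (-2.72) and IM2 (-3.28). Cxcl14, Acvrl1, Thbd, Flt1, Cspg4 and Acta2 were also present in AM, at means of 4.72 to 137 CPM.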

How the results depend on the processing

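Both Dcn calls kept their direction and side of the threshold under every alternative run. In IM2 against IM1, where edgeR called 0 members (2 at an unadjusted p under 0.05, and 0 by DESeq2), 2 were called with no filter on low counts, and leaving out 1 library gave 0 to 4. Of all genes, 241 were called there, 941 with no filter, 565 by DESeq2, 149 with interstitial libraries only, and 110 to 1904 with 1 library left out (1904 without IM1 replicate B). In IM3 against IM1, 1 to 5 members were called with 1 library left out (5 without IM1 replicate B). In IM3 against IM2, 2 were called with no filter, and 1 to 2 with 1 library left out. The cause was not tested.

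With the replicate block, 1 member (Col1a1) and 392 genes were called in IM2 against IM1. In IM3 against IM1, where the letters did not pair the libraries, 3 members were called, the added one being Col1a1 (1.18, edgeR adjusted p = 0.0102). In IM3 against IM2 the block changed no member's call.

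Among fold changes that passed no test, Calcrl in IM2 against IM1 reversed to -0.02 (upper-quartile scaling), -0.03 (library totals) and -0.00 (interstitial libraries only). Leaving out 1 library moved some across 0. In IM3 against IM2 the ranges were -0.44 to 0.11 for Col1a1, -0.23 to 0.11 for Col1a2, -0.03 to 0.32 for Bgn and -0.39 to 0.03 for Ramp2. In IM3 against IM1 they were -0.07 to 1.08 for Col3a1, -0.07 to 0.25 for Sparc and -0.58 to 0.12 for Calcrl. In IM2 against IM1 they were -0.04 to 0.19 for Bgn, -0.04 to 0.43 for Dcn, -0.33 to 0.38 for Calcrl and -0.31 to 0.2 for Cdh5.

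Of the co-variation pairs, 3 passed, 5 with length-matched levels and 0 to 3 with 1 library left out. The passing pairs were not always the collagen pairs. Col1a1 and Ramp2 passed with TMM-scaled CPM, and Col3a1 and Calcrl without IM1 replicate C. Without IM1 replicate A, both collagen pairs with Col3a1 lost the call, and a pair outside the collagens, not named here, passed. Without length scaling, the mean log2 ratios to Col3a1 became -1.39 for Col1a1, -0.85 for Col1a2, -1.11 for Bgn, -0.22 for Sparc, -3.18 for Dcn and 2.08 for Inmt, by construction. Counts of 10 to 22 limit Dcn in IM3, and 3 libraries a population limit every test.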
